A study of Vitis riparia with 12 samples.

Results

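Shoot tips of potted Vitis riparia, a North American grapevine used as a parent of rootstocks, were compared after 14 d without water (WD shoot) and after 14 d with 2 L of tap water per day (C shoot). The comparison rests on 6 of the 12 libraries of the study, 3 of WD shoot and 3 of C shoot, and the other 6 libraries came from root tips. All gene models of the shoot count table were considered, 29966 in number, of which 19569 had enough reads to be tested and 5472 had 0 reads in all 6 libraries. Each library combined RNA from 3 vines grown in a greenhouse, so the p-values below measure the spread between pools of vines. Alignment was to the genome of V. vinifera, a different species, and a read that matched more than 1 place was dropped, so counts can be too low for diverged genes and for close copies within a family.

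A shoot tip holds the apical meristem, young leaves and elongating internodes, where new cells form by division and then enlarge by yielding of the wall under turgor. Enlargement needs wall enzymes and wall glycoproteins as well as water. Plants that lose water are known to make protective proteins such as dehydrins, molecular chaperones, and soluble sugars of the raffinose family. Sampling bulk tissue means that fewer cells of a type and less RNA per cell cannot be told apart. The organ label was checked with 5 photosystem genes, whose summed level was 5070 to 13156 CPM (counts scaled to a common library total, with TMM factors over 12 libraries) in the shoot libraries and 7.31 to 116 CPM in the root libraries. KNAT6, a homeobox gene of the meristem, was read in all 6 shoot libraries at 3.27 to 21.9 CPM.

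Water deficit was accompanied by a change in a large part of the shoot transcriptome. At an adjusted p under 0.05, edgeR's quasi-likelihood test called 2563 genes higher in WD shoot (13.1% of those tested) and 2738 lower (14.0%), and 3711 of the called genes changed at least 2-fold (19.0%). The median log2 fold change of WD over C (log2FC) was 1.21 for genes called higher and -1.57 for genes called lower, against -0.02 for all tested genes. Genes called higher carried 9.37, 10.2 and 9.59% of the scaled reads on tested genes in the C libraries and 20.0, 23.99 and 28.7% in the WD libraries. Genes called lower carried 17.1, 21.4 and 19.9% in C and 8.23, 6.86 and 5.56% in WD. These shares describe genes chosen by the same test and are not a further test. Of the calls, 48.3% were rises with TMM scaling and 37.7% with scaling by total counts, which moved the median log2FC of all genes to -0.12, and with limma on RPKM values the share was 34.6% (pseudocount 1) or 34.9% (pseudocount 0.1).

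Rises took a larger share of abundant genes than of scarce ones. With tested genes split into 4 equal classes by mean level, 8.79% of the lowest class were called higher, and 16.9% of the highest class were. The shares called lower were 12.6% and 14.0% in the same classes. Among the strongest calls, 253 genes rose at least 8-fold (log2FC of 3 or more) and 284 fell as much, while 113 rose and 62 fell by a log2FC of at least 4. Of the 10 most abundant genes edgeR called 1 and DESeq2 called 3.

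**Figure D1:**
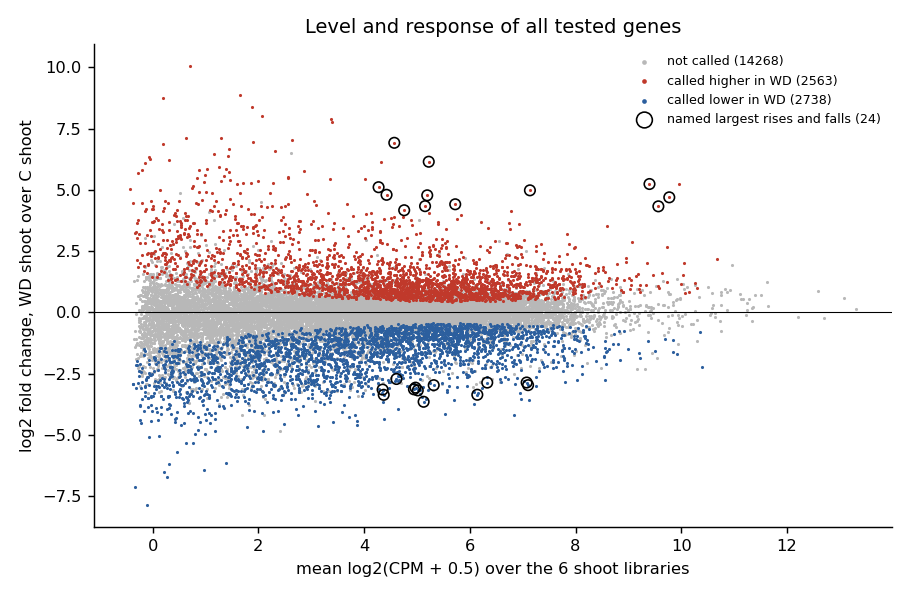
Mean level of each tested gene, log2(CPM + 0.5) over the 6 libraries (x axis), against its log2 fold change of WD shoot over C shoot (y axis). Points are 19569 genes, with 2563 called higher in red and 2738 called lower in blue, and circles mark the 12 largest rises and 12 largest falls among well-measured genes with a named function. The circled rises reach 6.92 and the circled falls -3.65.

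By correlation, replicates of a group resembled each other more than libraries of the other group, and the WD libraries differed in how far they lay from the controls. Pearson's r of log2(CPM + 0.5) over 19569 genes was 0.949 to 0.976 between C libraries, 0.941 to 0.973 between WD libraries and 0.823 to 0.928 between a WD and a C library. The first principal component held 73.0% of the variance and separated the groups, with C libraries at -68.9, -73.1 and -75.6 and WD replicates 1, 2 and 3 at 29.8, 71.3 and 116. WD replicate 1 was nearest to the C mean of the 3 WD libraries in 67.9% of the called genes, and WD replicate 3 was farthest in 70.5%. The median difference of called rises from the C mean was 0.96, 1.08 and 1.31 on the log2 scale in WD replicates 1, 2 and 3, and that of called falls was -1.09, -1.38 and -1.68. No pair of libraries agreed within counting noise. The chi-square per degree of freedom was 52.6 to 173 within groups and 162 to 356 between them. These ranges overlapped, since C replicates 1 and 2 gave 173 and C replicate 1 with WD replicate 1 gave 162.

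**Figure D2:**
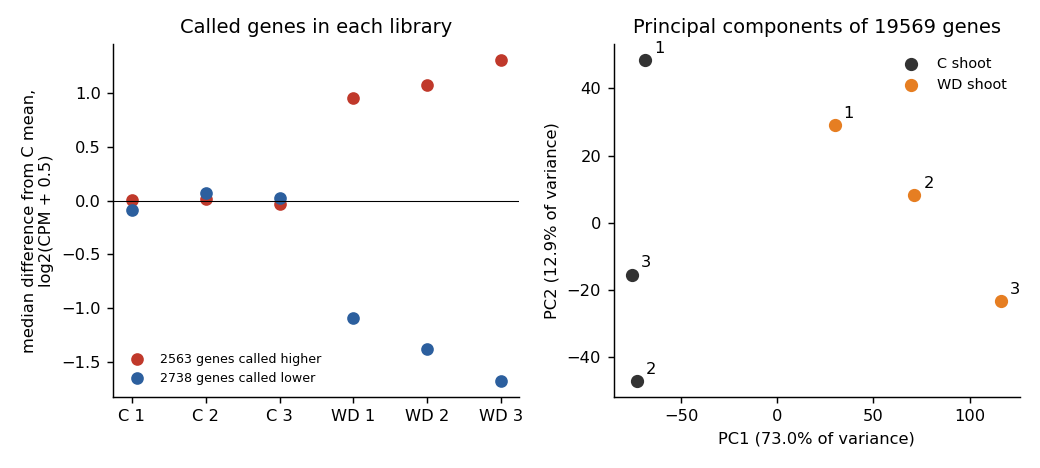
Left, the median difference of called genes from the C mean in log2(CPM + 0.5) for each library (rises in red, falls in blue). Right, the first principal component (73.0% of variance) and the second (12.9%) of all tested genes, with C shoot in black, WD shoot in orange and replicate numbers beside the points. WD replicate 1 lies nearest to the controls and WD replicate 3 farthest on the first component.

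With edgeR, single libraries had a large effect on how many genes passed the threshold, and with DESeq2 a smaller one. The groups were without overlap in 9798 genes (50.1% of those tested), 4792 with all WD libraries above (24.5%) and 5006 with all below (25.6%), and 8367 genes (42.8%) had an unadjusted p under 0.05 by edgeR. Without C shoot replicate 3 edgeR called 357 genes higher (1.80%) and 275 lower (1.39%), and without WD shoot replicate 2 it called 489 (2.45%) and 224 (1.12%). Without C shoot replicate 2 it called 1323 and 1142, and without WD shoot replicate 3 it called 1360 and 1452. Without WD shoot replicate 1 the counts were 2760 and 3355. The sign of the change was less affected, since all 5299 called genes that could be fitted without C shoot replicate 3 and all 5301 without WD shoot replicate 2 kept their direction. DESeq2's Wald test called 3449 genes higher (17.6%) and 3964 lower (20.3%) over the 6 libraries. It called 2200 (11.1%) and 2672 (13.5%) without C shoot replicate 3, and 2744 (13.7%) and 3142 (15.7%) without WD shoot replicate 2. The last 4 of these counts were added after the data had been seen.

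**Figure D3:**
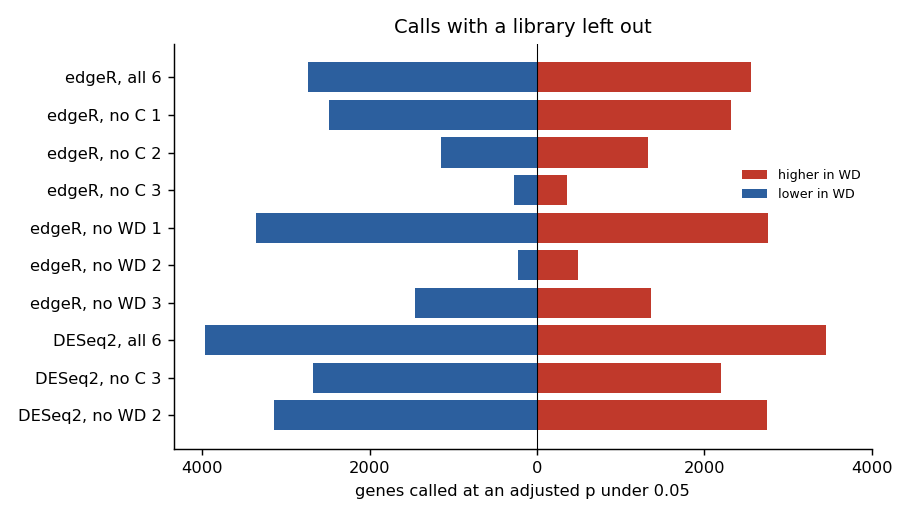
Number of genes called higher (red, to the right) and lower (blue, to the left) in WD shoot at an adjusted p under 0.05, for all 6 libraries and with 1 library left out, by edgeR and by DESeq2. The edgeR bars shrink to 357 and 275 genes without C replicate 3, while DESeq2 gives 2200 and 2672 genes there.

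Functions are known here for an uneven part of the response. They were taken from the study's annotation of genes that changed in its root comparison and from the part of its shoot annotation held here, which lists only rises, so 1304 of the 2563 called rises (50.9%) and 143 of the 2738 called falls (5.22%) have a named function. The largest falls described below are therefore the largest among 63 well-measured falls with a function, where well-measured means called, not overlapping between the groups, and at or above the median level of tested genes. There were 1367 well-measured falls in all, and 6 of them without a function were larger than the largest with one. Of the well-measured rises, 838 of 1595 had a function.

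Among well-measured genes the largest annotated rises were in a protease, a wall hydrolase and enzymes of raffinose metabolism. Some annotated genes below the median level rose more, such as Dehydrin 1 (VIT_03s0038g04390, log2FC 7.10) and Brother of FT and TFL 1 (VIT_16s0100g00700, 10.05). FtsH protease (VIT_14s0108g00590, chromosome 14 from 29333100 to 29335806 of the PN40024 12X V1 assembly), named for a family of ATP-dependent membrane proteases of plastids and mitochondria, had 2.54, 3.31 and 0.551 CPM in the C libraries and 148, 322 and 309 CPM in the WD libraries, a log2FC of 6.92 (SE 0.73, edgeR adjusted p = 0.00818). BXL1 (VIT_05s0077g01280, chromosome 5 from 1049443 to 1054222), a beta-xylosidase of the cell wall, had 2.28, 11.5 and 1.69 CPM in C and 349, 185 and 573 CPM in WD, a log2FC of 6.14 (SE 0.95, edgeR adjusted p = 0.0116). For both genes every WD library was more than 10-fold above the highest C library. Dehydrin 1b (VIT_04s0023g02480), a hydrophilic protein of drying cells, had 6.41, 62.01 and 31.0 CPM in C and 369, 774 and 1993 CPM in WD, a log2FC of 4.98 (SE 1.03, edgeR adjusted p = 0.0194). Its WD replicate 3 was more than 2-fold above the next WD library, and its C libraries also differed widely.

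Metallothionein (VIT_19s0014g02740), a small cysteine-rich metal-binding protein, was close to even across the WD libraries. It had 289, 107 and 136 CPM in C and 3687, 3505 and 3458 CPM in WD, a log2FC of 4.32 (SE 0.46, edgeR adjusted p = 0.00818). By mean RPKM, the authors' value per length, it moved from rank 2061 of all genes in C to rank 80 in WD. The other annotated rises of this size included homocysteine S-methyltransferase 3 (VIT_05s0020g03860, log2FC 5.10), an enzyme that forms methionine, a UPF0497 family gene (VIT_05s0020g01830, 4.79), a cysteine protease inhibitor (VIT_18s0041g00390, 4.77), a basic endochitinase (VIT_03s0038g03400, 4.41), which cleaves chitin, an alanine-glyoxylate aminotransferase (VIT_08s0058g00930, 4.33) and a PLATZ transcription factor (VIT_18s0122g00320, 4.16), of a zinc-binding family found in plants. Of the 12 largest well-measured annotated rises, edgeR called 8 without C shoot replicate 3 and 8 without WD shoot replicate 2, and DESeq2 called all 12 in both cases. The edgeR adjusted p of these genes without C shoot replicate 3 was 0.0468 to 0.0875.

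The most abundant transcript per length in WD shoot came from a gene without a known function. VIT_03s0038g01510 (chromosome 3 from 1041387 to 1041967), annotated as an unknown protein, had 130.3, 239.9 and 132 CPM in C and 5157, 4809 and 8993 CPM in WD, a log2FC of 5.24 (SE 0.48, edgeR adjusted p = 0.00731). It ranked 48 of all genes by mean RPKM in C and 1 in WD. Of the 10 most abundant genes by CPM it was the only one that edgeR called, and it was called by edgeR with either of the 2 decisive libraries left out. Another gene without a function, VIT_05s0020g00840, had 3.14, 2.42 and 1.26 CPM in C and 91.9, 183 and 205 CPM in WD, a log2FC of 6.14 (SE 0.49, edgeR adjusted p = 0.00731). ASR2 (VIT_18s0072g00380), a water stress and ripening protein, was already at 3314, 5469 and 5200 CPM in C and was at 8475, 6778 and 9990 CPM in WD, with no overlap of the groups (log2FC 0.85, SE 0.35, edgeR adjusted p = 0.114). DESeq2 called ASR2 higher, with an adjusted p of 0.00909.

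Genes that make raffinose-family sugars rose together. These sugars are built by galactinol synthase, which joins galactose to myo-inositol, and by raffinose and stachyose synthases, which pass the galactose on to sucrose and raffinose. All 7 members found in the root annotation were called higher, with a median log2FC of 3.66, beside 13.1% of all tested genes and 35.6% of the tested genes of that annotation. As for every gene list here, the members were genes that the study had selected on its root libraries, so their direction in shoot is not a random draw of the family. One galactinol synthase (VIT_01s0127g00470, chromosome 1 from 7835572 to 7837529) held nearly all of the reads, with 169.9, 68.5 and 106 CPM in C and 3096, 4571 and 5316 CPM in WD, a log2FC of 5.24 (SE 0.49, edgeR adjusted p = 0.00731). Its mean RPKM rank went from 1299 in C to 27 in WD. The summed level of the list was 96.3 to 204 CPM in the C libraries and 3187 to 5516 CPM in the WD libraries.

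The other galactinol synthases were scarce, at 0.232 to 1.64 CPM in C for the 3 genes on chromosome 14, which rose by 3.35 to 3.66 on the log2 scale. Those 3 lie close together, and reads that match more than 1 of them are not in these values. Raffinose synthase (VIT_14s0066g00810) had 28.2, 24.4 and 19.3 CPM in C and 63.2, 113 and 127 CPM in WD, a log2FC of 2.07 (SE 0.30, edgeR adjusted p = 0.0104). Alkaline alpha-galactosidase (VIT_08s0007g08310), which removes galactose from the same sugars, was at 149, 266 and 137 CPM in C and 2308, 5651 and 6295 CPM in WD, a log2FC of 4.69 (SE 0.55, edgeR adjusted p = 0.00858). A gene for the synthesis and a gene for the breakdown of raffinose-family sugars were thus both among the largest rises. Leaving out either C shoot replicate 3 or WD shoot replicate 2, edgeR called 2 of the 7 list members, while DESeq2 called 7 in both cases.

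Chaperones and protective proteins also rose, with a few members going the other way. Of 14 tested heat shock proteins, which keep other proteins folded, 11 were called higher and 2 lower, and the median log2FC was 2.79. The shares to read this and the next counts against are 13.1% higher and 14.0% lower over all tested genes, and 35.6% and 14.1% over the root annotation that supplied the members. A chloroplast small heat shock protein, HSP26a (VIT_16s0098g01060), had 1.59, 3.58 and 1.69 CPM in C and 72.9, 92.3 and 138 CPM in WD, a log2FC of 5.45 (SE 0.44, edgeR adjusted p = 0.00731). The more abundant HSP70 gene VIT_06s0004g04470 had 70.7, 93.6 and 59.3 CPM in C and 301, 575 and 335 CPM in WD (log2FC 2.44, SE 0.33, edgeR adjusted p = 0.00963). Against these, another HSP70 gene, VIT_16s0098g01580, fell from 262, 242 and 248 CPM to 104, 57.3 and 60.4 CPM, a log2FC of -1.76 (SE 0.26, edgeR adjusted p = 0.0111). VIT_08s0007g02380, another member of the list, fell by 1.09 on the log2 scale. HSP70 genes therefore moved in both directions in the same libraries. Of 4 tested late embryogenesis abundant proteins and dehydrins, 3 were called higher and the fourth had a log2FC of -0.20. Dehydrin 1 (VIT_03s0038g04390) went from 0.0861, 0.132 and 0.0394 CPM to 3.70, 9.04 and 25.8 CPM.

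Regulators and surface lipid enzymes gave smaller groups of calls. Their counts are to be read against 13.1% higher and 14.0% lower over all tested genes, and 35.6% and 14.1% over the tested root annotation. Of 10 NAC domain transcription factors, a family with many stress-responsive members, 5 were called higher and 0 lower (median log2FC 2.68). NAC19 (VIT_19s0014g03290) was among the called factors, with 26.0, 23.0 and 3.03 CPM in C and 101, 283 and 171 CPM in WD. Of 4 tested protein phosphatases 2C, a class that holds negative regulators of ABA signalling, 3 were called higher. The most abundant of these, annotated as DBP (VIT_06s0004g05460), was at 150.5, 109.8 and 54.9 CPM in C and 404, 707 and 532 CPM in WD, a log2FC of 2.38 (SE 0.42, edgeR adjusted p = 0.0141). The 4 called rises among 6 tested cuticle and wax genes included a pair of neighbouring wax synthases (VIT_15s0046g00480 and VIT_15s0046g00490, log2FC 1.69 and 2.21), which form the wax esters of the plant surface, and a beta-ketoacyl-CoA synthase (VIT_06s0004g04000), which extends fatty acids, fell by 2.08. Without C shoot replicate 3 edgeR called 7 heat shock proteins, 2 NAC factors, 2 phosphatases and 0 cuticle genes higher, and without WD shoot replicate 2 it called 6, 1, 1 and 0.

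**Figure D4:**
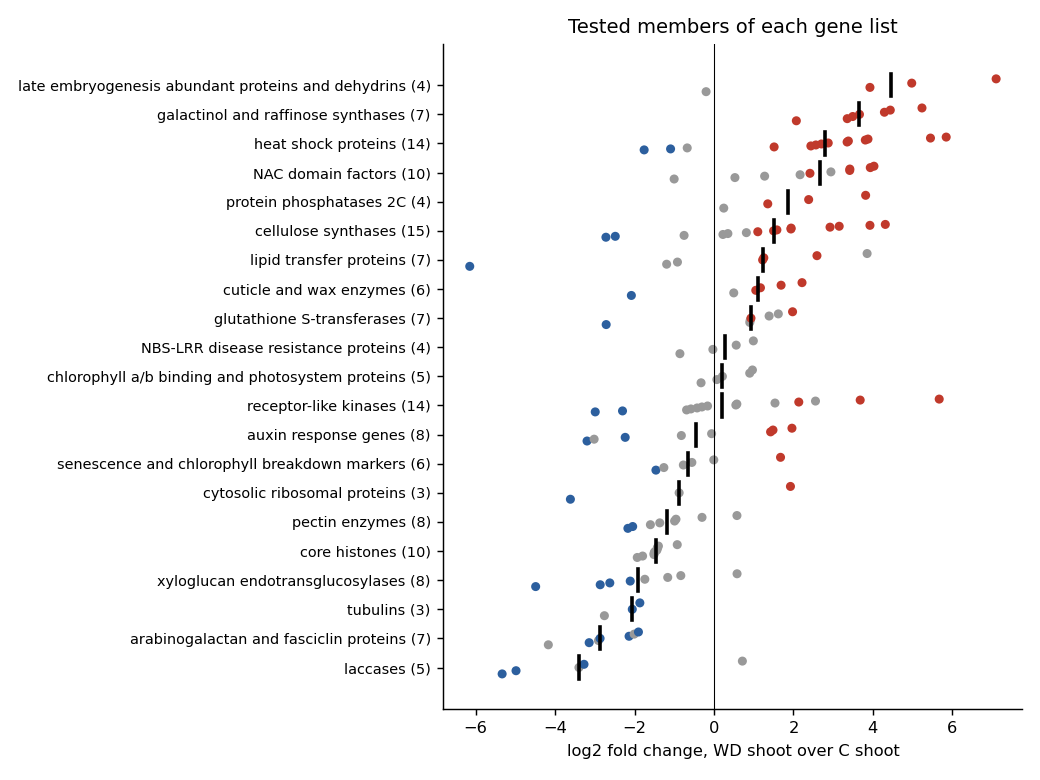
Log2 fold change of WD shoot over C shoot (x axis) for each tested member of the gene lists with at least 3 tested members, with the number tested in parentheses. Points are genes, red for called higher, blue for called lower and gray for not called, and the black bar is the median of the list, from 4.45 for late embryogenesis abundant proteins and dehydrins to -3.40 for laccases.

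Wall enzymes and wall glycoproteins gave calls in both directions. Over 29 tested genes for xyloglucan endotransglucosylases, pectin enzymes, laccases, arabinogalactan and fasciclin proteins and expansins, 13 were called lower and 0 higher. All WD libraries were below all C libraries in 21 of them, beside 25.6% of all tested genes. The median log2FC was -2.11, and 3 of the 29 had a positive log2FC. This union was formed after the values had been seen and leaves out wall genes that rose, such as BXL1 and the cellulose synthase family. Its share called lower is to be read against 14.0% of all genes and 14.1% of the root annotation. The broader cell wall pathway of the annotation had 11 genes called higher and 16 lower of 45 tested, with a median log2FC of -1.17. The summed level of the union was 3260 to 3766 CPM in the C libraries and 1556, 858 and 398 CPM in WD replicates 1, 2 and 3. DESeq2 called 22 of the genes lower, while the count by edgeR was 1 when C shoot replicate 3 was left out, 0 for WD shoot replicate 2, 4 for C shoot replicate 2 and 21 for WD shoot replicate 1.

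Xyloglucan endotransglucosylases, which cut and rejoin the xyloglucan tethers of growing walls, included XTH16 (VIT_12s0134g00160, chromosome 12 from 7708821 to 7710848). It had 245, 419 and 528 CPM in C and 78.1, 63.8 and 21.4 CPM in WD, a log2FC of -2.87 (SE 0.54, edgeR adjusted p = 0.0158). XTH8 (VIT_10s0116g00520) was lower still, at 57.7, 47.8 and 51.9 CPM in C and 4.67, 2.00 and 0.291 CPM in WD, a log2FC of -4.49 (SE 0.78, edgeR adjusted p = 0.0139). The most abundant member (VIT_00s0386g00050), at 391, 709 and 424 CPM in C and 285, 97.7 and 73.2 CPM in WD, missed the threshold (log2FC -1.74, edgeR adjusted p = 0.0593). Of 8 tested members 4 were called lower and 0 higher. Over all tested genes 14.0% were called lower, and over the root annotation 14.1%. An XTH23 gene (VIT_11s0052g01280) stood apart, with 6.97, 10.6 and 5.36 CPM in C but 31.9, 1.28 and 1.22 CPM in WD, so that it was above all C libraries in WD replicate 1 and below all in the others. Among 8 tested pectin enzymes 2 pectinesterases were called lower, which in a list this small cannot be told apart from the shares above. The more abundant of the 2 (VIT_16s0098g01900) had 728, 539 and 509.6 CPM in C and 221, 138 and 35.1 CPM in WD (log2FC -2.17, SE 0.62, edgeR adjusted p = 0.0438). An inhibitor of invertases and pectin methylesterases (VIT_11s0016g00590) fell too, from 219, 429.5 and 583 CPM to 67.0, 60.6 and 29.1 CPM.

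Arabinogalactan and fasciclin proteins, glycoproteins of the wall and the plasma membrane surface, were below the controls throughout. All 7 tested members had every WD library below every C library (25.6% of all tested genes did). Of these 4 were called lower (14.0% of all tested genes were, and 14.1% of the root annotation), and the median log2FC was -2.87. FLA8 (VIT_15s0048g01750) had 258, 249 and 272 CPM in C and 71.1, 28.5 and 6.93 CPM in WD, a log2FC of -2.87 (SE 0.75, edgeR adjusted p = 0.0345). FLA2 (VIT_12s0057g01020), at 429, 506 and 435 CPM in C and 189.7, 134 and 15.8 CPM in WD, missed the threshold (log2FC -2.01, SE 0.77, edgeR adjusted p = 0.095). The C values of both genes were nearly equal between libraries, and their WD values were spread over a range of more than 10-fold. AGP31 (VIT_00s0527g00030) was the reverse, with 41.2, 149.7 and 95.2 CPM in C and 12.3, 10.2 and 9.78 CPM in WD (log2FC -3.14, SE 0.47, edgeR adjusted p = 0.0111). Laccases, copper oxidases of lignin formation, had 3 of 5 tested members called lower, to be read against the same shares. Among them was VIT_18s0001g02350 with 20.7, 13.9 and 32.0 CPM in C and 4.89, 1.57 and 0.407 CPM in WD.

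Genes named as cellulose synthases divided. The name covers CESA3, a catalytic subunit of cellulose synthase in primary walls, and several families of cellulose synthase-like proteins. Over all tested genes 13.1% were called higher and 14.0% lower, and over the root annotation 35.6% and 14.1%. Of 15 tested members 9 were called higher and 2 lower, and the falls are near those shares. The 2 that fell were CSLC genes, whose Arabidopsis relatives make the xyloglucan backbone. CSLC04 (VIT_14s0066g01730) went from 64.4, 78.4 and 53.1 CPM to 15.6, 9.84 and 4.19 CPM (log2FC -2.72, SE 0.46, edgeR adjusted p = 0.0135), and CSLC05 (VIT_09s0018g01950) from 74.2, 78.2 and 68.4 CPM to 20.0, 15.1 and 4.25 CPM. CESA3 (VIT_07s0005g02470) was at 90.0, 77.7 and 79.1 CPM in C and 138, 216 and 175 CPM in WD, a log2FC of 1.10 (SE 0.20, edgeR adjusted p = 0.0149). The remaining rises were CSLB, CSLE and CSLG genes, several of them adjacent copies, with a log2FC of up to 4.31. That largest value, of CSLB04 (VIT_12s0059g00990, SE 1.27, edgeR adjusted p = 0.0471), came with overlap of the groups. This gene had 0.301, 3.71 and 0.433 CPM in C and 3.64, 46.3 and 40.5 CPM in WD. The other 4 members, CSLE1 and CSLG3 genes, were not called, and 1 of them (VIT_19s0015g00730, log2FC -0.75, edgeR adjusted p = 0.075) had all WD libraries below all C libraries. For the whole list 2 rises and 0 falls were called by edgeR without C shoot replicate 3 and 1 rise without WD shoot replicate 2.

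The remaining largest falls with a function came from several pathways. Shikimate dehydrogenase (VIT_14s0030g00660, chromosome 14 from 4804563 to 4811294), an enzyme on the way to aromatic amino acids, had 156, 137 and 231 CPM in C and 35.2, 5.23 and 1.28 CPM in WD, a log2FC of -3.65 (SE 1.09, edgeR adjusted p = 0.0493). Patellin-1 (VIT_07s0031g03220), which carries a lipid-binding SEC14 domain and in Arabidopsis locates to the forming cell plate, had 175, 296 and 259 CPM in C and 40.9, 19.0 and 10.9 CPM in WD (log2FC -3.37, SE 0.52, edgeR adjusted p = 0.0116). A second SEC14-type gene (VIT_10s0003g05480) changed as much (log2FC -3.37). Vacuolar invertase GIN1 (VIT_16s0022g00670), which splits sucrose in the vacuole, had 119.9, 98.4 and 103 CPM in C and 21.3, 15.0 and 1.80 CPM in WD (log2FC -3.08, SE 0.76, edgeR adjusted p = 0.0297). WD replicate 3 was the lowest library for each of these genes. RALFL34 (VIT_07s0031g00540), a secreted signalling peptide, the thioredoxin-like TTL3 (VIT_12s0028g02240) and the copper oxidase homolog SKS17 (VIT_00s0253g00040) had log2FC of -3.19, -3.16 and -2.98 and were called. Of the 12 largest annotated falls edgeR called 3 when C shoot replicate 3 was left out, 0 for WD shoot replicate 2 and 7 for C shoot replicate 2. DESeq2 called 12 with either of the first 2 left out.

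Among well-measured genes, larger falls were found in those without a function. Annotated genes below the median level also fell far, such as XTH8 (log2FC -4.49) and a lipid transfer protein (VIT_02s0154g00310, -6.15). VIT_01s0150g00460 (chromosome 1 from 22826414 to 22828725) had 939.6, 824 and 391 CPM in C and 103, 8.61 and 7.28 CPM in WD, a log2FC of -4.18 (SE 1.16, edgeR adjusted p = 0.0402). VIT_12s0028g02990 had 65.5, 194.5 and 76.1 CPM in C and 11.7, 3.66 and 1.16 CPM in WD, a log2FC of -4.34 (SE 0.89, edgeR adjusted p = 0.019). Neither overlapped between the groups, and edgeR called neither once C shoot replicate 3 or WD shoot replicate 2 was left out.

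Histone genes separated the WD libraries from each other. Core histones package new DNA and are transcribed mostly in cells that replicate it. All 10 core histone genes of the root annotation (H2A, H2B, H3 and H4), which need not be the whole family, had a negative log2FC. It ran from -1.93 to -0.93 with a median of -1.47, and 0 were called by edgeR, 1 had an unadjusted p under 0.05 and 1 was called by DESeq2. Their summed level was 279, 300.3 and 496 CPM in C replicates 1, 2 and 3 and 318, 37.1 and 25.7 CPM in WD replicates 1, 2 and 3. WD replicate 1 was inside the range of the C libraries in 8 of the 10 genes. An H3 gene (VIT_13s0064g01340) is typical, with 43.4, 42.6 and 74.4 CPM in C and 51.4, 3.71 and 1.22 CPM in WD. Ribonucleotide reductase R2 (VIT_14s0068g02000), which supplies deoxynucleotides, had the same shape, at 10.9, 25.9 and 34.8 CPM in C and 11.1, 1.52 and 0.873 CPM in WD (log2FC -2.40, SE 0.97, edgeR adjusted p = 0.106). Without WD shoot replicate 1 edgeR called all 10 core histones lower. Histone genes are near-identical copies, so reads with several alignments are missing from these values.

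The linker histone behaved otherwise. Histone H1 (VIT_04s0023g03130), which binds DNA between nucleosomes and has drought-inducible forms in other plants, was at 85.2, 149 and 152 CPM in C and 379, 441 and 669.5 CPM in WD, a log2FC of 1.95 (SE 0.33, edgeR adjusted p = 0.013). It rose in all 3 WD libraries, those with high and those with low core histones. Across all tested genes, 58 had WD replicate 1 inside the C range and both other WD libraries at least 4-fold below the lowest C library, 4 had this shape with WD replicate 2 as the odd one and 0 with WD replicate 3. The 58 included 7 of the listed core histones and 14 genes with a function. The fold of 4 and the shape were set after the histone values had been seen, and why WD replicate 1 differed was not tested.

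**Figure D5:**
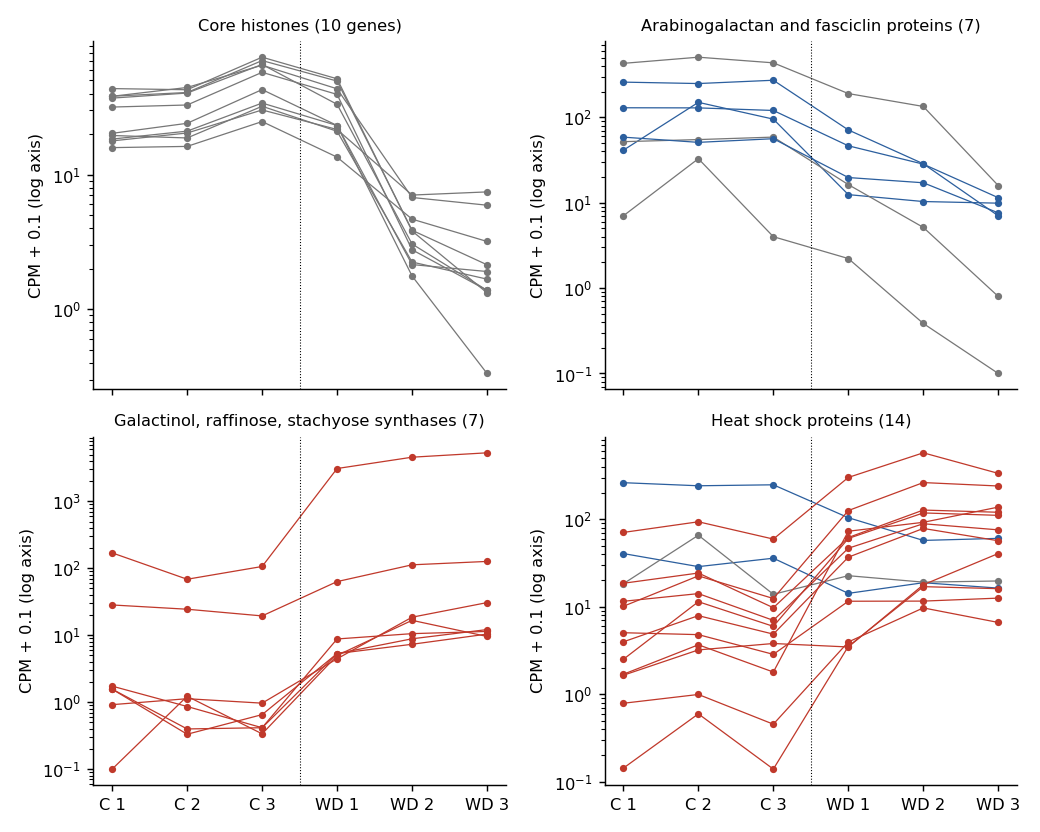
CPM + 0.1 on a log axis in each shoot library for 4 gene lists, where lines join the values of 1 gene, the dotted line divides C from WD libraries, and color shows genes called higher (red), lower (blue) or not called (gray). Core histones sum to 318 CPM in WD replicate 1 and to 37.1 and 25.7 CPM in WD replicates 2 and 3, while all 7 raffinose-pathway genes are higher in every WD library.

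Small lists for microtubules and water channels held a few falls. Of 3 beta-tubulins, subunits of microtubules, 2 were called lower (14.0% of all tested genes were) and all 3 had WD below C throughout (25.6%). Tubulin beta-6 (VIT_02s0025g03540) had 65.6, 96.4 and 139.9 CPM in C and 26.3, 23.2 and 33.2 CPM in WD, a log2FC of -1.87 (SE 0.30, edgeR adjusted p = 0.0124). Aquaporin PIP2;4 (VIT_08s0040g01890), a plasma membrane water channel, had 172, 411 and 206 CPM in C and 102, 57.4 and 39.2 CPM in WD (log2FC -1.99, SE 0.47, edgeR adjusted p = 0.0269). The only other aquaporin in the root annotation, NIP1;2 (VIT_14s0108g00700), was at 44.8, 25.5 and 22.5 CPM in C and 20.8, 23.4 and 2.04 CPM in WD, with overlap of the groups (edgeR adjusted p = 0.361). Aquaporins outside that annotation were not listed here, and the paper reports that every aquaporin it called in WD shoot was lower. The channels and pores pathway of the root annotation had 7 genes called higher and 3 lower of 21 tested, with a median log2FC of 0.16. Alpha-expansin 3 (VIT_17s0000g06360), a wall-loosening protein, had 13.3, 103.6 and 6.03 CPM in C and 11.7, 5.37 and 7.16 CPM in WD, and its log2FC of -2.35 rested on C replicate 2. Without C shoot replicate 3 edgeR called 1 tubulin and 0 aquaporins, and without WD shoot replicate 2 it called 0 of either.

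Photosynthesis, defence and auxin lists are read against 27.1% of all tested genes called and 49.6% of the tested root annotation, which supplied their members. In lists of 4 or 5 genes, 0 calls cannot be told apart from the first share. Whether 0 calls differ from the second share was not tested. Of 5 photosystem genes 0 were called by edgeR (DESeq2 called 2 higher), with a median log2FC of 0.21 beside -0.02 for all genes, and the summed level of C libraries differed by more than 2-fold among themselves. PSBS (VIT_18s0001g02740), a photosystem II protein of energy dissipation, had 2074, 987 and 1319 CPM in C and 3019, 2674 and 2467 CPM in WD (log2FC 0.90, SE 0.34, edgeR adjusted p = 0.0901). Of 4 tested NBS-LRR resistance genes 0 were called by edgeR or DESeq2. Receptor-like kinases had 3 rises and 2 falls among 14, and the largest fall was FRK1 (VIT_07s0005g06500), at 25.4, 38.6 and 22.8 CPM in C and 5.92, 3.00 and 1.98 CPM in WD (log2FC -2.99, SE 0.45, edgeR adjusted p = 0.0111). Auxin response genes had 3 rises and 2 falls among 8, with a median log2FC of -0.44. The falls, AIR12 (VIT_00s0184g00110, log2FC -3.20) and auxin-induced protein 22D (VIT_14s0030g02310, -2.24), were larger than the largest rise (1.96). The SAUR29 gene (VIT_15s0048g02860), of an early auxin response family, rose from 44.0, 34.3 and 42.1 CPM in C to 110.5, 104.5 and 107.9 CPM in WD (log2FC 1.42, SE 0.15, edgeR adjusted p = 0.00818).

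Several small lists were mixed. Over all tested genes 13.1% were called higher and 14.0% lower, and over the root annotation that supplied the members 35.6% and 14.1%. Counts in lists this small cannot be told apart from the shares of the root annotation. Of 7 glutathione S-transferases, which conjugate glutathione to reactive compounds, 2 were called higher, GSTU25 (VIT_19s0027g00460, log2FC 1.98) and GSTU19 (VIT_19s0093g00220, 0.93), and GSTF8 (VIT_07s0104g01830) fell by 2.72. Of 7 lipid transfer proteins 3 were called higher and 1 lower. Of 6 senescence markers 1 was called higher and 1 lower, with a median log2FC of -0.67. Of 3 genes annotated as ribosomal proteins, all scarce here at no more than 10.8 CPM, 1 rose and 1 fell. The gene that rose (VIT_06s0004g00820) is also annotated as a squalene/phytoene synthase. RPS17A (VIT_08s0007g02620) had all WD libraries below all C libraries but was not called (log2FC -0.88, edgeR adjusted p = 0.0607). The reference gene of PCR work in the study, eIF4A (VIT_09s0002g01760), was at 395, 505 and 608 CPM in C and 491, 534 and 626 CPM in WD (log2FC 0.13, SE 0.23, edgeR adjusted p = 0.699).

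A small number of genes were close to silent in 1 group. There were 27 called rises with at most 3 reads in every C library and 33 called falls with at most 3 reads in every WD library, and 2 of each were at 0 reads in all libraries of that group. VIT_16s0100g00700, annotated as Brother of FT and TFL 1 after a family that holds regulators of flowering, had 0 reads in C and 1.52, 8.89 and 7.22 CPM in WD, at least 50.9-fold higher than a floor of 3 reads per library. VIT_14s0108g00450, with no known function, had 6 reads over the C libraries and 1566 over the WD libraries, a scaled ratio of 364 (95% exact binomial interval 167 to 992). VIT_17s0000g03550, also without a function, had 544 reads in C and 4 in WD, a scaled ratio of C to WD of 97.6 (95% exact binomial interval 37.9 to 359.6). These intervals cover counting error only.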

How the data were processed

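RNAseq was read from 3 WD shoot and 3 C shoot libraries, grouped by their labels. Single-end reads were cleaned by the authors in Prinseq and mapped by TopHat2 2.0.8 and Bowtie2 2.1.0 onto the V. vinifera PN40024 12X V1 assembly. Deposited raw counts of reads per gene model came from htseq-count. RPKM values of each library, made by the authors in Cufflinks, were used here for ranks, gene positions and the limma alternative. Cuffdiff tables, which hold the authors' own comparisons (group values, fold changes and p-values), were not read. The annotation tables of the study list genes selected by such comparisons, so that selection set which genes could be named, for rises on these same shoot libraries. The root counts served only the organ check. The 5 lines that name no gene were left out, and 72.6 to 76.5% of the counted reads were on genes (17429395 to 27769527 per library). All value columns used had a sample, so 0 were unassigned.

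Counts were filtered with filterByExpr, scaled by TMM and compared with the robust quasi-likelihood test of edgeR 4.0.16 (R 4.3.3), two-sided, with Benjamini-Hochberg adjustment over all tested genes and a threshold of 0.05. SE is the absolute log2FC divided by the square root of F. With 3 against 3 libraries exact permutation of 1 gene gives p = 0.1 at the lowest. The code was tested on simulated data.

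Members and lists were chosen with earlier results of these data known. Named genes were the 12 largest rises and 12 largest falls among well-measured annotated genes, the 10 most abundant genes, leading members of each list, 5 genes at the floor of each group, and eIF4A. Members described beyond these (such as HSP26a, CSLC05, VIT_08s0007g02380, VIT_11s0052g01280, alkaline alpha-galactosidase as a partner of the raffinose list, and the largest changes without a function) were added after their values were seen. Lists were keyword searches of the annotation of root genes, and lists for cyclins, kinesins, autophagy, kinase inhibitors, stomatal and xylem genes found no member there. Promoter and protein sequences were not analysed here. Alternatives were DESeq2 1.42.0, upper-quartile and total-count scaling, no filter, at least 10 counts in every library, a replicate block, limma 3.58.1 on log2 RPKM with a pseudocount of 1 or 0.1, non-robust estimates, and each library left out.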

Additional observations from a re-analysis of the deposited data

How the results depend on the processing

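The counts of genes called higher, called lower and changed at least 2-fold stayed within 1.5 times their values under every alternative that kept all 6 libraries. With 1 library left out edgeR called 357 to 2760 genes higher, 224 to 3355 lower and 630 to 4547 with at least a 2-fold change. The lowest of these came with C shoot replicate 3 or WD shoot replicate 2 left out, and the cause was not tested. Of the called genes, 5296 of 5301 kept their sign with limma on RPKM values of either pseudocount, and all that could be fitted kept it under the other alternatives. The replicate number was not treated as a pairing. Deviations of same-numbered libraries correlated at 0.15, -0.11 and 0.06, and those of differently numbered libraries at -0.25 to 0.23. With 3 libraries in each group these values show no pairing but cannot exclude it. With the replicate block 1801 genes were called higher, 1936 lower and 3052 with at least a 2-fold change. Among the named genes, signs changed only for ones that were not called. With 1 library left out their log2FC spanned -0.020 to 0.50 for PsbO (VIT_00s0207g00210), -1.14 to 0.0061 for KNAT6, -0.15 to 0.11 for an auxin efflux carrier (VIT_04s0044g01850), -0.20 to 0.18 for a resistance protein (VIT_07s0197g00240), -0.015 to 0.29 for eIF4A, and -0.25 to 0.44 for a senescence-associated protein (VIT_18s0001g05020), which was 0.0089 with upper-quartile scaling and 0.043 with the block. They spanned -0.59 to 0.13, -0.30 to 0.80 and -0.46 to 0.082 for the abundant genes VIT_10s0003g02890, VIT_17s0000g03690 (-0.0070 with DESeq2 without C shoot replicate 3) and VIT_19s0090g01000. The span was wider, from -2.60 to 1.15, for the XTH23 gene VIT_11s0052g01280, also not called. Depth limits the genes at a few reads, for which only ratios with counting intervals or lower bounds are given.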

Other observations

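The root annotation also places genes in VitisNet pathways, and 35 of these had at least 8 genes tested in shoot. This grouping was chosen after the gene values had been seen, and its genes were selected on root libraries, so the counts stand beside 35.6% of tested root-annotation genes called higher and 14.1% called lower. The median log2FC was positive in 21 pathways and negative in 14. Protein processing in the endoplasmic reticulum stood highest, with 8 of 10 genes called higher and 1 lower (median 3.03). Glycerolipid metabolism had 6 of 9 higher and 0 lower (median 1.45), and homeobox factors had 4 of 9 higher and 0 lower (median 1.54). The lowest median was that of incompletely characterized transport systems, with 9 of 16 genes lower and 4 higher (median -2.26). Regulation of the actin cytoskeleton had 4 of 8 genes lower and 1 higher (median -1.96), phenylpropanoid biosynthesis 5 of 11 lower and 3 higher (median -1.61) and flavonoid biosynthesis 5 of 10 lower and 1 higher (median -1.13). ABC transporters, with 4 of 10 lower and 0 higher, had a median of -0.35. Without C shoot replicate 3 edgeR called 6 of the endoplasmic reticulum genes higher, 3 of the glycerolipid genes higher, 2 of the homeobox genes higher, 1 of the transport genes lower and 1 higher, 1 of the actin genes lower, 1 of the phenylpropanoid genes lower and 1 higher, 2 of the flavonoid genes lower and 2 of the ABC transporters lower.

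Some called genes were neighbours. There were 69 places where at least 3 neighbouring tested genes were called higher and 74 where as many were called lower, and since 13.1% and 14.0% of all tested genes were called, such places can arise without any clustering, and whether there were more than that gives was not tested. The longest held 7 falls in a row on chromosome 3 between 894853 and 911175 (VIT_03s0038g01210 to VIT_03s0038g01280, log2FC from -6.52 to -2.14), none of which has a function in the annotation used here. A row of 5 rises on chromosome 19 between 14902633 and 15032098 held 3 genes annotated as cytochrome P450 of the CYP72A family, with log2FC from 0.57 to 7.12 over the row. Another on chromosome 2 between 4357315 and 4404958 held genes annotated as CYP76B1 and geraniol 10-hydroxylase, with log2FC from 1.09 to 5.25. Neighbours can be copies of 1 gene, and whether they are was not tested.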
